A study of Mus musculus with 4 samples.

Results

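Cycling CD8 T cells were picked from 4 single-cell RNA libraries of the mouse by their transcripts. A barcode with at least 1000 UMIs (unique molecular identifiers, each counted as 1 transcript molecule), at least 200 genes and at most 10% of UMIs from mitochondrial genes was taken as a cell. It was a CD8 T cell where it had at least 1 UMI each of Cd3e, Cd8a and Cd8b1 and 0 UMIs of Cd4, Foxp3 and Ncr1. It was cycling where Mki67 and Top2a together had at least 3 UMIs, and all other gated CD8 T cells are called non-cycling. The rule gave 1142 cycling and 2606 non-cycling CD8 T cells among 15752 cells kept. Since the rule reads Mki67 and Top2a, every difference between cycling and non-cycling cells below is a description of the split and carries no test.

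There was 1 library for each group, named IgG, Ac, C and aC+C; what these short names stand for is not said in the sources used here. Their titles name immune cells that infiltrated a tumor, whereas other fields tell of goblet cells, which make gut mucus, from RedMUC298trTg reporter mice; an age of 6-8 weeks is given for all 4 groups. No tumor model, strain of the tumor-bearing mice, dose, time or number of mice is named in the sources used here. Kept cells numbered 3436 (IgG), 4027 (Ac), 4208 (C) and 4081 (aC+C), and any pair of libraries shared 2 to 7 barcodes. With 1 library per group, a difference between groups cannot be told apart from one between libraries, no spread between replicates exists, and every interval below is an exact 95% interval for counting error only. Where 4 values stand together, they follow the order IgG, Ac, C, aC+C. Transcripts of 1 cell are not independent molecules of the group, so these intervals are too narrow for the groups.

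CD8 T cells recognise peptides on MHC class I through the T cell receptor and kill with perforin and granzymes. After activation they divide, passing from G1 into S phase, where DNA is copied, and through G2 into mitosis. E2F factors switch on the genes of DNA replication and nucleotide supply near the start of S phase, and a complex with B-MYB, FOXM1 and MuvB proteins switches on those of mitosis later. In tumors, T cells under lasting antigen stimulation carry inhibitory receptors such as PD-1, and a stem-like subset marked by the factor TCF1 can give rise to more differentiated cells.

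The promoters of mitosis and replication genes hold different motifs, and 4 of them are shown because they carry the motifs of the factors named above. Windows from 250 bases before to 50 after a transcription start were taken from RefSeq (GRCm38.p6), with several windows for some genes. The windows of a chromosome were left out, for the lists and for all genes alike. Some listed genes without a window may lie there. Motifs were searched on both strands, and a gene counted where any of its windows held one. The CHR element (TTTGAA or TTCGAA) is bound by the MuvB complex, CCAAT by the factor NF-Y and the E2F-type motif (TTTGGCGC, TTTCCCGC, TTTCGCGC or TTTGCCGC) by E2F factors. Of 64 genes of the mitosis lists 54 had a window, and 74.1% of these held a CHR motif, 70.4% a CCAAT and 63.0% both in 1 window. Over all 27025 genes of the windows used the shares were 21.7%, 41.1% and 8.61%. Of 48 genes of the replication and nucleotide lists 38 had a window, and 36.8% of these held an E2F-type motif, against 2.60% of all genes and 9.26% of the mitosis genes. A CHR motif was found in 15.8% of the replication genes. A match shows letters and not binding. Shown are the first 280 bases of the window, 5′ to 3′, for the mitosis genes of most UMIs with a CHR and a CCAAT motif (Ube2c, which helps the anaphase-promoting complex mark cyclins for destruction, and Cenpa, the histone of the centromere) and for the replication genes of most UMIs with an E2F-type motif (Mcm6 and Mcm3, subunits of the replicative helicase), with those motifs in capitals. Ube2c lay at chr2:164769679-164769958 on the + strand, Cenpa lay at chr5:30666636-30666915 on the + strand, Mcm6 lay at chr1:128359676-128359955 on the - strand and Mcm3 lay at chr1:20820283-20820562 on the - strand. In Ube2c a pair of CCAAT matches overlap, and in Mcm6 a pair of E2F-type matches do.
Ube2c: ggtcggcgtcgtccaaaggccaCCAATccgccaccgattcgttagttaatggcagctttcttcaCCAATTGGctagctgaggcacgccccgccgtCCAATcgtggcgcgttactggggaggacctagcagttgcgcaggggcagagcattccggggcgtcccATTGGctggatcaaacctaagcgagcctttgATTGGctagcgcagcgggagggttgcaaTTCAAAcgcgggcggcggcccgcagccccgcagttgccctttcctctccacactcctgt
Cenpa: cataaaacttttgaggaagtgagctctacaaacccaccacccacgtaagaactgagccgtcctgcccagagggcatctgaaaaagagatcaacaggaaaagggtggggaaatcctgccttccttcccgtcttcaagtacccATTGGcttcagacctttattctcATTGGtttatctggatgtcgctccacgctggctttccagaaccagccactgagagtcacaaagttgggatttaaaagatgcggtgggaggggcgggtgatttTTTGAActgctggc
Mcm6: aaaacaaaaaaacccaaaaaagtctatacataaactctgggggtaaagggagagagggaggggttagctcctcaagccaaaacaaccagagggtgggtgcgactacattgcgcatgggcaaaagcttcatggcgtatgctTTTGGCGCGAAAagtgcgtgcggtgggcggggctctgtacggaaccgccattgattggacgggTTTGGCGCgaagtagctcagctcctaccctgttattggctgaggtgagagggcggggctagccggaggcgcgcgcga
Mcm3: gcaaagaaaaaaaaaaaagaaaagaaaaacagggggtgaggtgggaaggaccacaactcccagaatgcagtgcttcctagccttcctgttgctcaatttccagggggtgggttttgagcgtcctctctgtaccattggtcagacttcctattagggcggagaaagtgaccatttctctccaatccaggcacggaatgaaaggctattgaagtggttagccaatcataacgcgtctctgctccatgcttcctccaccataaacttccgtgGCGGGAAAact

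Cycling cells were a smaller share of CD8 T cells in Ac than in the other libraries. IgG had 336 among 1027 gated CD8 T cells, a share of 32.7% (29.9 to 35.7). Ac had 282 among 1129, or 24.98% (22.5 to 27.6). C had 213 among 659, or 32.3% (28.8 to 36.0), and aC+C 311 among 933, or 33.3% (30.3 to 36.5). As counted, the interval of Ac lay below those of the other libraries, which overlapped one another. Cycling cells held more UMIs, with medians of 22508, 20585, 24157 and 22776, against 10921, 9317, 10030 and 10642 in non-cycling cells, and a count of transcripts is easier to reach in a deeper cell. Each gated cell was therefore also thinned to 5000 UMIs, which left out 68, 32, 41 and 69 shallower CD8 T cells, 3 of them cycling. At that depth 22.2% (19.6 to 24.98), 16.7% (14.5 to 19.0), 21.5% (18.3 to 24.97) and 24.7% (21.8 to 27.7) had at least 3 UMIs of Mki67 and Top2a, and 42.5% (39.4 to 45.7), 36.3% (33.4 to 39.2), 41.3% (37.3 to 45.3) and 42.5% (39.2 to 45.9) had at least 1. Ac stayed lowest, but its interval then overlapped that of C at 3 UMIs and those of C and aC+C at 1. Macrophage-type cells, with at least 3 UMIs of Lyz2 and 1 of Csf1r and 0 of Cd3e and Cd3g, had at least 1 UMI in 9.87%, 11.5%, 11.99% and 11.7% of cells at the same depth; their medians before thinning were 11242, 12952, 11716 and 11608 UMIs.

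**Figure D1:**
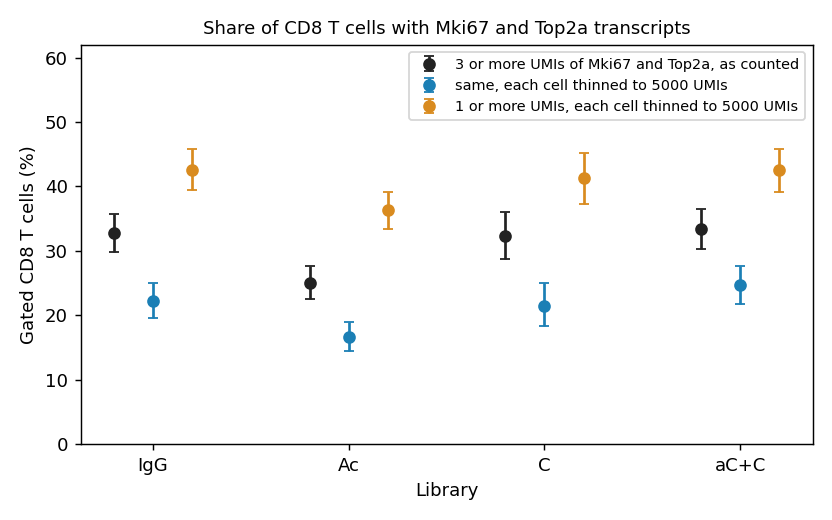
Share of gated CD8 T cells (%, vertical axis) with transcripts of Mki67 and Top2a in each library, as counted and after thinning to 5000 UMIs; bars are exact 95% binomial intervals. Ac has the lowest point of each series, at 24.98%, 16.7% and 36.3%.

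Some cells carried transcripts of other cell types, most of all in C. At least 5 UMIs over 12 macrophage genes were present in 17.0%, 13.8%, 47.4% and 27.7% of cycling cells, and in 11.6%, 4.96%, 20.4% and 9.16% of non-cycling cells. Without such cells the cycling share was 31.3% (28.3 to 34.5), 23.2% (20.7 to 25.9), 24.0% (20.2 to 28.1) and 28.5% (25.4 to 31.8). The interval of Ac then overlapped those of C and aC+C. A fixed number of UMIs is reached more easily in a deep cell, and cycling cells were the deeper ones. Counted at 5000 UMIs per cell, at least 2 macrophage UMIs were present in 16.5%, 11.03%, 36.2% and 20.9% of cycling and 14.1%, 12.99%, 33.8% and 21.0% of non-cycling cells. Without those cells the cycling share was 34.2% (30.9 to 37.6), 26.0% (23.3 to 28.9), 33.7% (29.1 to 38.5) and 36.0% (32.4 to 39.7), against 34.8%, 25.6%, 34.5% and 36.0% with them. At least 5 macrophage UMIs among 5000 were present in 10.5%, 4.63%, 25.8% and 4.82% of cycling cells. In non-cycling cells these shares were 8.8%, 3.31%, 15.8% and 4.52%, so at this cut cycling cells of C held them more often. Leaving these cells out gave cycling shares of 34.4% (31.2 to 37.7), 25.4% (22.8 to 28.1), 31.7% (27.6 to 35.9) and 35.9% (32.6 to 39.3). Ac stayed lowest, and its interval overlapped that of C. At either cut the interval of C still held its share of 34.5%. A droplet doublet score put 1.79%, 4.26%, 8.92% and 4.82% of cycling cells among the likely doublets of their library. Whether these cells are doublets, cells with free RNA or T cells that took up other cells' RNA was not tested.

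Cells with exactly 3 UMIs of Mki67 and Top2a, just inside, numbered 31, 38, 25 and 27, and cells with 2 UMIs, just outside, 71, 59, 44 and 69. The summed level of the mitosis lists, as UMIs per 1000000 UMIs of the class (CPM), was 1553, 1700.0, 1467 and 1880.5 at 2 UMIs and 2068, 1777, 1264 and 3121 at 3. With at least 10 UMIs it was 8489, 10503, 8364 and 10104, and these cells, 209, 181, 141 and 222 in number, made up most of the members in each library. From 2 to 3 UMIs the level was higher in IgG and aC+C, nearly level in Ac and lower in C.

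The rule fixed that every member held Cd8a, Cd8b1, Cd3e and Mki67 or Top2a, so their levels are a description. Cd8a (ENSMUSG00000053977) was at a CPM of 629.7 (IgG), 678 (Ac), 489.6 (C) and 675 (aC+C) in cycling cells, and Cd3d, a subunit of the T cell receptor complex that the rule did not use, at 859.9, 999.7, 679 and 964. The level of Cd3d was lowest in C, and without cells that carried other types' transcripts it was 991, 1068, 1048 and 1069. Mki67 (ENSMUSG00000031004), which encodes the Ki-67 protein of dividing cells, was at 327, 427, 328 and 381 CPM, and Top2a (ENSMUSG00000020914), which encodes topoisomerase II alpha, at 564, 743, 580.3 and 691. Summed over 12 genes, macrophage markers were at 1428, 1109, 4455 and 940.5 CPM in cycling cells with no gene at 0, dendritic markers at 163, 21.8, 157 and 12.8 and fibroblast markers at 295, 34.1, 527 and 423; 1 cell held 52.4%, 61.4%, 8.57% and 82.6% of the fibroblast UMIs. Non-cycling cells had macrophage markers at 2087, 1259.7, 4899 and 1026 CPM. NK cell markers, some of which CD8 T cells also express, were at 601, 289, 1010.2 and 365 CPM in cycling cells with 1 of 9 genes at 0, and neutrophil markers at 1.98, 17.0, 108 and 4.35. Markers of goblet and other epithelial cells summed to at most 29.1 CPM, with 7 or 8 of 11 genes at 0 in each library, and B cell markers to at most 6.78 CPM. C thus held the most transcripts of macrophages, fibroblasts and epithelial cells among its members, and comparisons of libraries are given with and without the members that had at least 5 UMIs over the markers of macrophages, dendritic cells, fibroblasts, B cells, neutrophils or epithelial cells. That left 253, 241, 109 and 223 members.

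Members lay at different points of the cell cycle, and those of IgG leaned least towards mitosis. Counted at 5000 UMIs per cell, the replication and nucleotide supply lists together had a median of 23, 27, 20 and 24 UMIs per member. Both are counted as replication UMIs in this paragraph. The mitosis lists had 26, 36, 28 and 41. Histone genes, whose messages are made during S phase, had 4, 7, 5 and 8. Mitosis UMIs exceeded replication UMIs in 50.3% (44.8 to 55.8) of the members of IgG and 61.7% (56.1 to 67.2) of those of aC+C. Ac had 58.0% (52.0 to 63.8) and C 57.7% (50.8 to 64.5). The interval of aC+C lay above that of IgG, and those of Ac and C overlapped both. In 5.09% to 8.92% of members of a library the sums were within 2 UMIs of each other, so this split is a cut through a range and not a pair of cell types. Among non-cycling cells the share was 31.9% to 36.0%, at medians of a few UMIs.

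**Figure D2:**
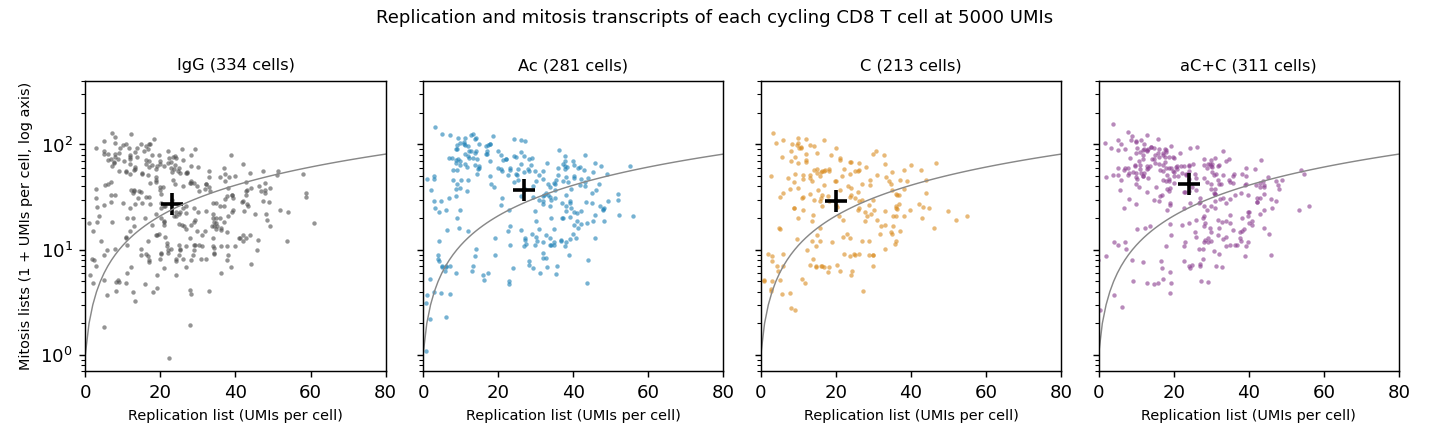
Each point is 1 cycling CD8 T cell thinned to 5000 UMIs. The horizontal axis has UMIs of the replication and nucleotide supply lists together, and the vertical log axis 1 plus UMIs of the mitosis lists. Crosses mark medians and the grey line equal sums. The median lies near the line in IgG (23 and 26 UMIs) and farthest above it in aC+C (24 and 41).

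Against non-cycling CD8 T cells of the same library, cycling cells held many times more transcripts of mitosis and several times more of replication. A gene was called where its CPM was at least 1.5 times higher, or lower, in all 4 libraries, among genes with at least 100 UMIs over both classes in each. Of 7646 genes 494 were called higher, or 6.46%, and 86 lower, or 1.12%. All of the 36 measured genes of spindle, centromere and condensin were called higher, with a median ratio of 16.4, as were 24 of 25 genes of mitotic cyclins, kinases and the anaphase-promoting complex, with a median of 16.7. Of replication-dependent histones 14 of 16 were called higher (median 9.24), of replication licensing and fork genes 29 of 33 (median 2.97) and of nucleotide supply genes 10 of 12 (median 3.09). The split was made on 2 genes of this programme, and nothing is read from these shares.

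Among the mitosis genes, Cdk1, the kinase that drives entry into mitosis, was at a CPM of 170.2 (IgG), 231 (Ac), 163 (C) and 248 (aC+C) in cycling and 7.09, 6.56, 6.81 and 10.5 in non-cycling cells. Ccnb1, its cyclin partner, was at 64.0, 89.5, 71.8 and 101 against 3.83, 4.34, 3.86 and 5.87, and Birc5, which encodes survivin of the chromosomal passenger complex, at 329.8, 427, 331 and 456 against 20.8, 21.6, 21.0 and 35.8. All 3 were at least 10 times higher in cycling cells of every library. Pttg1, which encodes the separase inhibitor securin, was the gene of these lists that did not follow, at 94.1, 85.9, 73.3 and 82.3 against 99.6, 110, 87.4 and 101 CPM. Reads of near-identical copies can be split in counting, and whether this touches Pttg1 was not tested. The 10 genes of highest ratio were Esco2, Pbk, Hist1h1b, Nusap1, Hist1h2ab, Mxd3, Bub1, Nuf2, Neil3 and Hist1h2ap, with geometric mean ratios of 187 to 49.0. The ratio of Esco2, which fastens sister chromatids together in S phase, rests on 3, 2, 3 and 1 UMIs in non-cycling cells, so its size is not known closely.

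Replication genes stood out less, and non-cycling cells also held them. Mcm3 was at 191, 184, 155 and 169.9 CPM in cycling cells and 86.0, 61.7, 78.6 and 90.2 in non-cycling cells, a ratio of 1.88 to 2.98. Mcm6 had a ratio of 1.45 to 2.18 and fell short of the fold in 1 or more libraries, and Pcna, the sliding clamp of DNA polymerase, one of 2.15 to 2.80. Steeper were Cdc6, which loads the helicase, at 4.87 to 17.0, and Rrm2, the limiting subunit of ribonucleotide reductase, at 19.1 to 45.0. Tk1, a thymidine kinase of S phase, had ratios of 4.21 to 7.75. Hist1h1b, a linker histone of S phase, was at 360.2, 566, 372 and 500.2 CPM against 4.53, 7.67, 5.70 and 6.85. Most messages of such histones lack the poly(A) tail on which 3′ capture relies, so their levels are of what was captured.

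Regulators of entry into S phase went in both directions. Of 17 measured genes 10 were called higher and 1 lower, beside 6.46% and 1.12% of all genes. E2f8, a repressor that E2F itself induces, had a ratio of 12.04 to 53.5 and Ccne2, the cyclin E2 of the G1 to S step, one of 3.18 to 8.64. Ccnd2, the D-type cyclin of lymphocytes, was the gene called lower, at 142, 109, 109.9 and 104 CPM in cycling and 226, 188, 198 and 187 in non-cycling cells, while Ccnd3 had ratios of 0.741 to 0.877 and Myc of 1.05 to 1.23. Inhibitors of cyclin-dependent kinases were split too, with 2 of 14 genes called higher and 4 lower. Cdkn2c and Cdkn2d, which encode p18 and p19 of the INK4 family, were the higher ones, at ratios of 2.52 to 3.30 and 1.91 to 2.46. Btg1, Pdcd4, Txnip and Ypel3, linked to arrest of growth, were the lower ones, and Btg1 was at 734, 648, 585 and 459 CPM against 1172, 1147, 1007 and 847. Cdkn1b, which encodes p27, had ratios of 0.632 to 0.745 and did not reach the fold in every library.

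**Figure D3:**
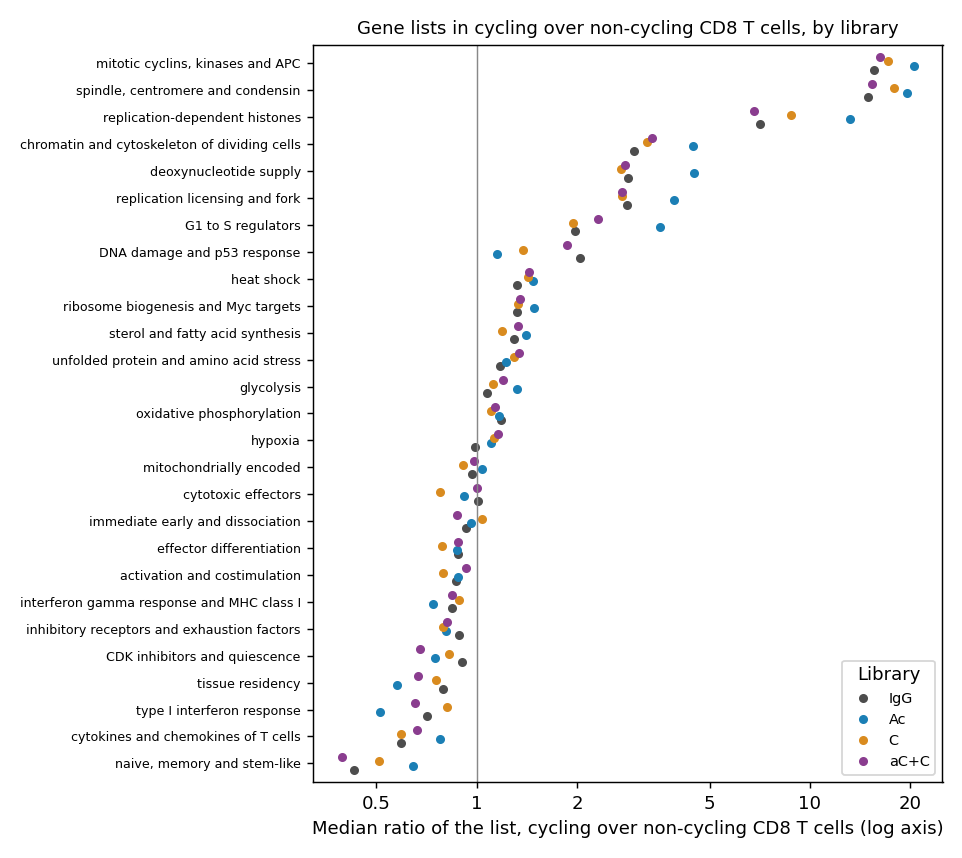
Median ratio of each gene list in cycling over non-cycling CD8 T cells (log axis), 1 point per library. Mitosis lists lie between 14.9 and 20.5, and naive and memory genes between 0.394 and 0.643.

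Several genes of naive, memory and stem-like T cells were lower in cycling cells. Of 11 measured genes 6 were called lower and 0 higher, with a median ratio of 0.514, beside 1.12% lower and 6.46% higher of all genes. Without cells that carried other types' transcripts 4 of 7 were lower and 0 higher, at a median of 0.431. Tcf7, which encodes TCF1, was at a CPM of 9.21 (IgG), 5.88 (Ac), 11.1 (C) and 7.54 (aC+C) in cycling and 28.4, 14.2, 39.7 and 24.3 in non-cycling cells. Cxcr3, a chemokine receptor of effector and memory T cells, was at 8.98, 6.50, 8.97 and 3.45 against 21.7, 34.5, 28.3 and 22.1, and S1pr1, the receptor for leaving tissue, at 3.73, 1.86, 6.04 and 3.96 against 14.1, 7.90, 15.8 and 14.8. All 3 were lower in cycling cells of every library. Low genes are sensitive to depth, so cells with a UMI were also counted at 5000 UMIs per cell. Tcf7 was then seen in 2.69%, 2.49%, 4.23% and 2.57% of cycling and 10.4%, 4.41%, 11.1% and 6.69% of non-cycling cells (before thinning 9.88%, 6.05%, 14.6% and 6.75% and 17.3%, 6.62%, 16.05% and 11.2%), with 1.27%, 0.232%, 0.526% and 0.0907% of macrophage-type cells as background; its intervals were apart in IgG and C and overlapped in Ac and aC+C. Cxcr3 was seen in 6.29%, 4.63%, 3.76% and 1.93% against 9.76%, 15.7%, 12.6% and 9.76% (before thinning 13.5%, 9.96%, 15.0% and 4.82% and 14.4%, 22.3%, 18.5% and 13.9%), with intervals apart in Ac, C and aC+C. Read the other way, 25.6%, 9.22%, 13.6% and 10.0% of CD8 T cells with a Cxcr3 UMI were cycling, and 35.7%, 28.0%, 36.7% and 37.9% of those without one.

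Some genes of the interferon response and some chemokines were also lower, beside 1.12% of all genes. Of 30 measured genes of the type I interferon response 7 were called lower in all libraries and 0 higher, and the median ratio was 0.708 (IgG), 0.514 (Ac), 0.815 (C) and 0.651 (aC+C). Counted in each library by itself, 12 of 31 were at least 1.5 times lower in IgG, beside 4.8% of all genes, 25 of 30 in Ac, beside 8.25%, 8 of 31 in C, beside 4.26%, and 16 of 30 in aC+C, beside 5.85%. The difference between libraries was not tested. Ifit1, which blocks translation of viral RNA, was at 50.3, 30.3, 46.0 and 38.5 CPM against 100.1, 118, 85.7 and 114, and Slfn5, a Schlafen gene that interferon induces, at 17.6, 6.35, 22.1 and 7.54 against 36.7, 25.5, 48.9 and 28.9. Without cells that carried other types' transcripts the median over all libraries was 0.587, against 0.675 with them. Of T cell cytokines and chemokines 2 of 12 were called lower. Ccl5, a chemokine stored by effector T cells, was at 1040, 1020, 922 and 611 CPM against 2673, 3804, 1728 and 2329, and Ltb, a lymphotoxin subunit, had ratios of 0.496 to 0.602. Ifng, the main antiviral and antitumor cytokine of CD8 T cells, had ratios of 0.682 to 0.946 and was not called.

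Killing and inhibitory genes had no member past the fold in all 4 libraries, though single libraries showed differences. Of 17 measured cytotoxic genes 0 were called in either direction, at a median ratio of 0.930, and of 14 inhibitory receptor and exhaustion genes 0, at 0.847. Gzmb, which encodes granzyme B, was at a CPM of 1443 (IgG), 1653 (Ac), 727 (C) and 2275 (aC+C) in cycling and 1329, 1802, 1134 and 2120 in non-cycling cells, and it passed the fold on the lower side in C. These sums of C include cells that carried other types' transcripts, 48.8% of its cycling and 22.9% of its non-cycling cells. At 5000 UMIs per cell Gzmb was seen in 71.4% (64.8 to 77.3) of cycling cells of C. In its non-cycling cells the share was 65.9% (61.1 to 70.5), so the intervals overlapped. Pdcd1, which encodes PD-1, was at 274, 324, 167 and 330.2 against 310, 401, 213 and 385, and Tox, a factor of exhausted T cells, at 165, 186, 160.2 and 144 against 177, 209, 164 and 160.4. At 5000 UMIs per cell Pdcd1 was seen in 70.4%, 78.3%, 59.2% and 78.5% of cycling and 70.6%, 80.4%, 58.0% and 74.1% of non-cycling cells (before thinning 96.7%, 96.8%, 93.9% and 97.4% and 85.9%, 90.8%, 78.5% and 89.2%), with overlapping intervals in every library and a background of at most 1.01%. Some granzymes differed at that depth: in Ac Gzmc was seen in 18.1% (13.8 to 23.2) of cycling and 9.68% (7.74 to 11.9) of non-cycling cells, and Gzmd, Gzme and Gzmf also had a higher share in cycling cells with intervals apart. In aC+C Gzmb was seen in 88.4% (84.3 to 91.8) of cycling and 79.6% (76.0 to 82.9) of non-cycling cells, and Gzme had intervals apart in the same direction. Ifng in Ac was seen in 53.4% (47.4 to 59.3) of cycling and 40.3% (36.9 to 43.8) of non-cycling cells. Of Gzma, Gzmb, Gzmc, Gzmd, Gzme, Gzmf, Gzmk and Prf1 the other intervals overlapped in each library.

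**Figure D4:**
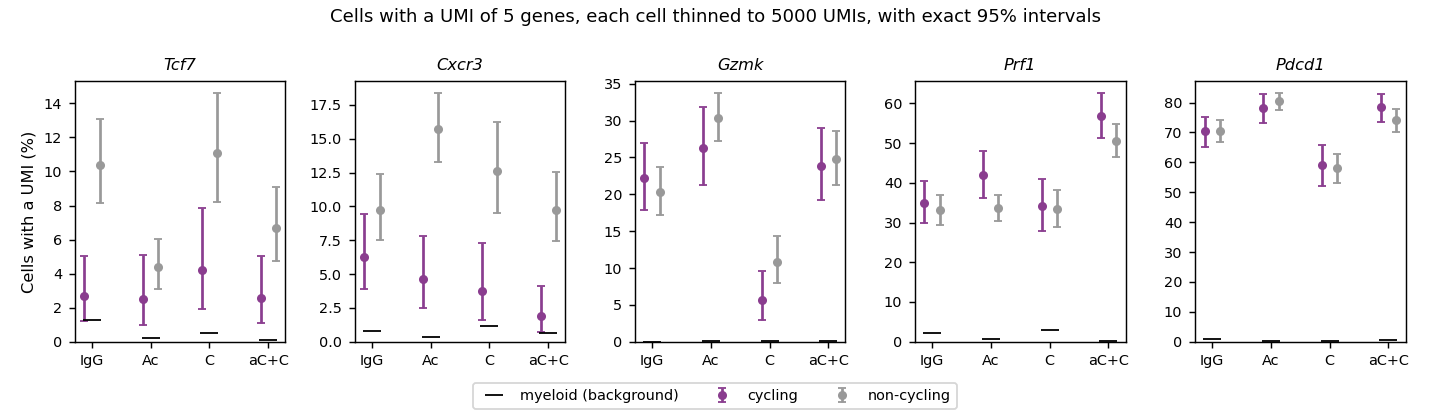
Share of cells with a UMI (%, vertical axis) in cycling and non-cycling CD8 T cells of each library, each cell thinned to 5000 UMIs, with exact 95% intervals; the black mark is the share in macrophage-type cells. Tcf7 and Cxcr3 lie lower in cycling cells of each library, and Prf1 is highest in aC+C in both classes, at 56.9% and 50.6%.

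Growth and metabolism lists had medians above 1 in cycling cells, with few genes past the fold. Ribosome biogenesis had a median ratio of 1.41 over 23 genes, chaperones of the heat shock list 1.38 over 14, sterol and fatty acid synthesis 1.30 over 19, glycolysis 1.18 over 17 and oxidative phosphorylation 1.14 over 32. The median over all genes compared was 0.994, 1.02, 1.05 and 1.03 in the 4 libraries. Few of these genes passed the fold in all libraries: 1, 1, 2, 0 and 0 in that order, beside 6.46% of all genes called higher. Phgdh, the first enzyme of serine synthesis, was at 165, 165, 200.1 and 213 CPM in cycling and 79.8, 74.8, 78.7 and 92.2 in non-cycling cells, and Tfrc, the transferrin receptor for iron uptake, at 57.3, 92.6, 53.5 and 62.9 against 30.7, 34.0, 30.4 and 29.4. Both were at least 1.5 times higher in every library.

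Ac, C and aC+C were then each compared with IgG among cycling cells only; the 3 comparisons share the IgG library. A gene was compared where both libraries together had at least 100 UMIs of it, and the rule did not use these contrasts. Genes named below as highest or lowest in ratio are so among genes of which no cell held over 20% of the UMIs in either library. Ac had 107 of 8283 genes past 1.5 times on the higher side, or 1.29%, and 462 on the lower side, or 5.58%. Histone genes were the list with most higher members, 10 of 19, at a median of 1.51, and 10 of 18 without cells that carried other types' transcripts. Hist1h2ae was at a CPM of 106 (IgG), 256 (Ac), 159 (C) and 209 (aC+C), a ratio of 2.41 (2.22 to 2.61) in Ac over IgG, and Hist1h1b had a ratio of 1.57 (1.498 to 1.65). Spindle genes had a median of 1.29 with 1 of 37 past the fold, and replication genes one of 1.08 with 0 of 36; the median of all genes was 0.983. Without the members above these medians were 1.23 and 1.00.

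Apart from histones, the genes highest in Ac over IgG were Fam178b, Pxylp1, Tff1, Areg, Fam20a and Cdk5rap1. Areg, which encodes the growth factor amphiregulin, was at 54.6, 125, 52.8 and 30.9 CPM in cycling cells, with 15.2%, 18.3%, 14.1% and 28.5% of it in 1 cell, and the ratio was 2.29 (2.04 to 2.58). In non-cycling cells the ratio was 0.743; the difference between the classes was not tested. Fam178b had a ratio of 3.55 (2.48 to 5.16) and 0.855 in non-cycling cells. Tfrc had 1.62 (1.43 to 1.82) and 1.11. Tff1, a trefoil peptide of the stomach lining, had 2.44 (1.84 to 3.25) at 9.21, 22.4, 10.7 and 21.6 CPM, and 2.21 in non-cycling cells. Without cells that carried other types' transcripts the ratios of Areg, Fam178b and Tfrc were 2.14, 3.31 and 1.58.

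Lower in Ac were Pltp, Il1b, Gcnt2, Tbc1d4, Basp1, H2-Aa, Marcks, Itgax, Csf2rb and Cd74, at ratios of 0.179 to 0.271. Most are known from myeloid and antigen-presenting cells: H2-Aa and Cd74 make and guide MHC class II, and Il1b encodes interleukin 1 beta. Macrophage markers were at 1428 CPM in IgG and 1109 in Ac and dendritic markers at 163 and 21.8. Without members carrying such transcripts Cd74 was at 86.2, 25.8, 67.6 and 23.3 CPM in the 4 libraries, against 1527, 414, 2164 and 171 with them, and 61 genes were lower in Ac. Of the 462 genes lower as first counted, 301 had too few UMIs left to be compared, 128 were compared and no longer past the fold, and 33 still were.

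Against IgG, C had more genes on the higher than on the lower side. It had 860 of 8663 genes past 1.5 times on the higher side, or 9.93%, and 146 on the lower side, or 1.69%. Those highest were Timp2, Pdgfa, Gng11, Angptl2, Myof, Trim47, Zfhx3, Cd63, Igf1r and Rgl1, at ratios of 6.07 to 4.31. Cd63, a tetraspanin of lysosomes, was at 70.5, 42.7, 319 and 59.5 CPM and at 2.35, 1.57, 6.02 and 6.68 without members carrying other types' transcripts. The last values of Cd63 rest on 13, 8, 13 and 33 UMIs. Without those members 109 of 6437 genes were higher and 95 lower. Of the 860 genes higher as first counted, 691 had too few UMIs left to be compared, 136 were compared and no longer past the fold, and 33 still were.

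Among genes of which no cell held over 20% of the UMIs, Gzmk had the lowest ratio of C to IgG. It stayed low in both settings. Gzmk, a granzyme of memory-like and early exhausted CD8 T cells, was at a CPM of 57.5 (IgG), 70.0 (Ac), 17.0 (C) and 63.0 (aC+C) in cycling and 60.0, 95.9, 30.0 and 85.0 in non-cycling cells. C was the lowest library in both classes. The ratio to IgG was 0.296 (0.238 to 0.365), and 0.332 (0.240 to 0.451) without members carrying other types' transcripts. Its share of cycling cells with a UMI at 5000 UMIs was 22.2%, 26.3%, 5.63% and 23.8% (before thinning 50.3%, 49.1%, 19.7% and 51.4%), against at most 0.116% in macrophage-type cells. Xlr4c, Lzts1, Rnaset2b, Cxx1a, Sult2b1, Hook1, Izumo1r, Gm6133 and Gdf11 followed, at 0.305 to 0.464.

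Several killing genes were lower in C, and fewer without members carrying other types' transcripts. Of 17 cytotoxic genes 9 were past the fold below IgG and 0 higher, at a median of 0.662. The shares over all genes were 1.69% lower and 9.93% higher. Without members carrying other types' transcripts the median was 0.976, with 3 lower and 2 higher. Beside them 95 were lower and 109 higher of 6437 genes. Gzmb had a ratio of 0.504 (0.487 to 0.521) and 0.714 (0.683 to 0.746) without those members, and Pdcd1 0.610 (0.567 to 0.656) and 0.828 (0.751 to 0.912). Both were thus lower in C in either setting, by less in the second. Of T cell cytokines and chemokines 5 of 13 measured were past the fold on the higher side, and 1 of 7 without those members. Ccl3, a chemokine that draws myeloid and T cells, was at 80.01, 148, 144 and 127 CPM, a ratio of 1.80 (1.63 to 1.99) and 2.65 (2.33 to 3.02) without those members. Immediate early genes, which tissue digestion can also induce, had a median of 1.39 and 1.07.

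In aC+C the cycling cells held more granzyme B and perforin transcripts than in any other library. Against IgG it had 173 of 8448 genes past 1.5 times on the higher side, or 2.05%, and 689 on the lower side, or 8.16%. Divided by the median ratio of all genes, which was 0.942, the counts were 247 and 503. Prf1, which encodes perforin, was at a CPM of 103 (IgG), 180.2 (Ac), 107 (C) and 258 (aC+C). The ratio of aC+C was 2.50 (2.31 to 2.71) to IgG, 1.43 (1.33 to 1.54) to Ac and 2.40 (2.20 to 2.62) to C, and Ac lay between IgG and aC+C. Gzmb, at the levels given above, had ratios of 1.58 (1.54 to 1.61), 1.38 (1.34 to 1.41) and 3.13 (3.03 to 3.23). Without members carrying other types' transcripts the ratios were 2.34, 1.44 and 1.58 for Prf1 and 1.38, 1.45 and 1.93 for Gzmb. In non-cycling cells the ratios to IgG were 2.35 and 1.59, near those of cycling cells. Serpinb9b, a relative of the granzyme B inhibitor Serpinb9, was at 34.2, 63.8, 43.8 and 130 CPM, a ratio of 3.81 (3.34 to 4.35) to IgG.

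The granzymes C to G lie with Gzmb in 1 gene cluster and mark strongly stimulated killer cells. Over all members Gzmd, Gzme and Gzmf were highest in aC+C and Gzmg in IgG. Single cells held a large part of the UMIs of some of them. Gzmd was at 372, 113, 111 and 609 CPM and Gzme at 179, 89.3, 94.7 and 374, and 1 cell held 38.3%, 15.2%, 28.8% and 17.3% of the Gzmd UMIs in the 4 libraries. Gzmf was at 1017, 734, 559 and 1643 CPM, and at 919.6, 553, 1154 and 1151 without members carrying other types' transcripts, where the ratio of aC+C to C was 0.998. Gzmg was at 221, 7.43, 24.9 and 200.2 CPM with 52.4%, 33.3%, 60.9% and 27.3% in 1 cell, so its level describes single cells. Of 17 cytotoxic genes 7 were past 1.5 times above IgG in aC+C and 1 lower, and 3 and 2 without those members. The shares over all genes were 2.05% higher and 8.16% lower, and without those members 90 and 251 of 7085 genes.

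**Figure D5:**
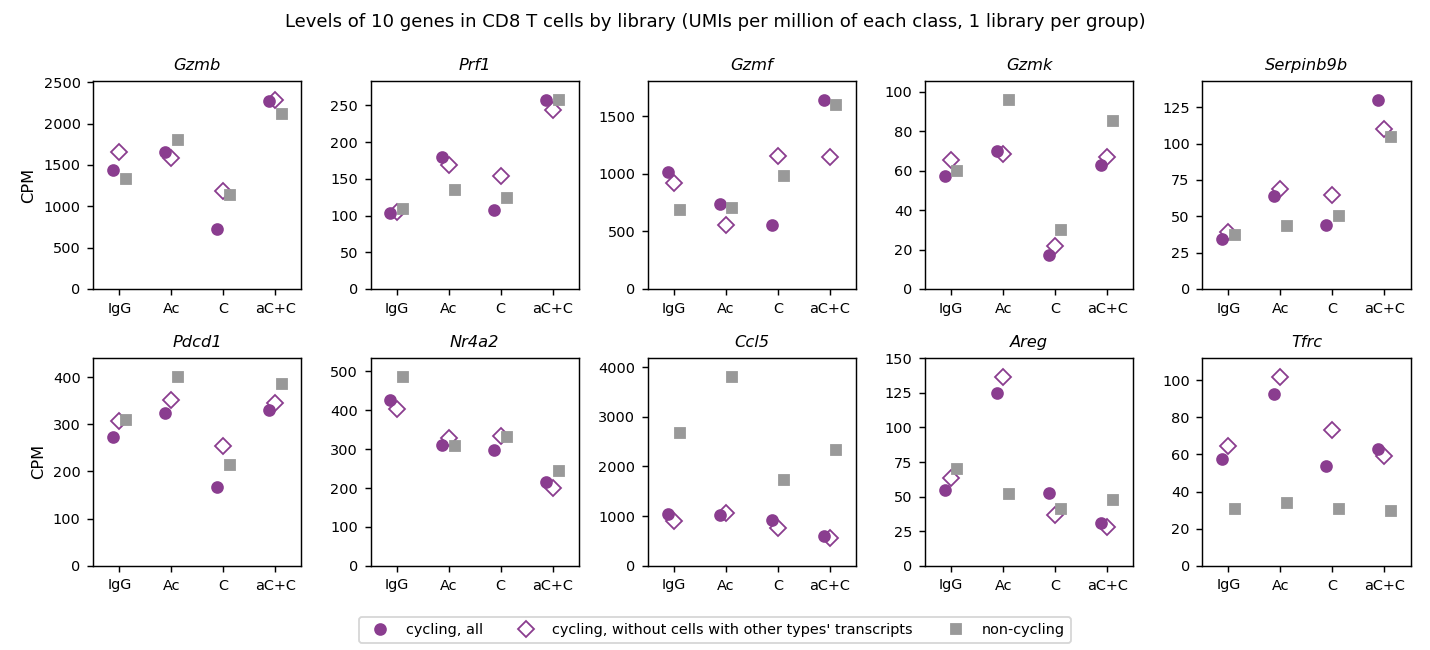
Level (CPM, vertical axis from 0) of 10 genes in each library, for cycling CD8 T cells, for those without other types' transcripts and for non-cycling CD8 T cells, with no replicates and no error bars. Prf1, Gzmb and Serpinb9b are highest in aC+C, Gzmk is lowest in C, Areg is high in cycling cells of Ac, and Nr4a2 is lowest in aC+C.

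Nr4a2 and Nr4a3 were lower in aC+C than in IgG. Nr4a2, a nuclear receptor that T cell receptor signalling can induce, was at a CPM of 426 (IgG), 311 (Ac), 298 (C) and 214 (aC+C), and its relative Nr4a3 at a CPM of 110, 70.7, 71.7 and 41.0. Ratios of aC+C to IgG were 0.504 (0.475 to 0.534) and 0.373 (0.328 to 0.424), and 0.497 and 0.432 without members carrying other types' transcripts. Non-cycling cells had 0.504 and 0.394. The immediate early list, some of whose genes handling of tissue also induces, had 8 of 16 genes at least 1.5 times lower and 1 higher, at a median of 0.690. Over all genes 8.16% were lower and 2.05% higher. Without members carrying other types' transcripts 5 of 14 were lower and 1 higher, at a median of 0.732, beside 251 lower and 90 higher of 7085 genes. Activation and costimulation genes had a median of 1.00, with 1 higher and 2 lower of 20. Btg1 had a ratio of 0.625 (0.600 to 0.651), and of CDK inhibitor and quiescence genes 4 of 14 were lower and 1 higher. Without members carrying other types' transcripts 3 of 14 were lower and 1 higher. Ccl5 had a ratio of 0.587 (0.567 to 0.608) in cycling and 0.871 in non-cycling cells.

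Most mitosis and replication genes stayed within the fold between aC+C and IgG. Mitotic cyclins, kinases and anaphase-promoting complex genes had a median of 1.29 with 4 of 27 higher and 0 lower. Spindle genes had 1.26 with 3 of 37 higher and replication genes 0.979 with 1 of 36 higher, and 0 were lower. All genes had a median of 0.942, with 2.05% higher and 8.16% lower. Without members carrying other types' transcripts the 3 list medians were 1.25, 1.21 and 0.938. There 2, 3 and 0 genes of these lists were higher, beside 90 of 7085 genes. Ube2c, whose promoter is shown above, was at 372, 456, 376 and 609.6 CPM, a ratio of 1.64 (1.56 to 1.71) to IgG and 1.55 (1.47 to 1.64) without members carrying other types' transcripts. Mcm6 had a ratio of 0.890 (0.828 to 0.957) and Mcm3 one of 0.888 (0.825 to 0.955). Asns, which makes asparagine, was at 14.2, 15.9, 32.2 and 40.9 CPM, a ratio of 2.88 (2.33 to 3.57).

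Those lowest in aC+C against IgG were H2-DMb2, H2-Eb1, H2-Ab1, H2-Aa, Ckb, Itgax, H2-DMb1, Plbd1, Csf2rb and Qpct, at ratios of 0.0548 to 0.136. H2-Ab1, an MHC class II chain, was at 658, 166, 888 and 46.3 CPM and at 40.4, 13.8, 32.9 and 14.2 without members carrying other types' transcripts, beside dendritic markers of 163, 21.8, 157 and 12.8 CPM. Without them 251 genes were lower in aC+C than in IgG and 90 higher. Of the 689 genes lower as first counted, 339 had too few UMIs left to be compared, 198 were compared and no longer past the fold, and 152 still were.

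aC+C was also compared with Ac and with C, and these comparisons share the aC+C library. Against Ac it had 159 of 8001 genes past 1.5 times on the higher side, or 1.99%, and 219 on the lower side, or 2.74%. Divided by the median ratio of 0.964, the counts were 178 and 164. Iigp1, which leads the higher genes, had a ratio of 1.31 (0.552 to 3.19) without members carrying other types' transcripts. Among those highest were Iigp1, Gzmd, Gzme, Hist1h2ap, Gstt1, Thbs1, Gm10073, Emilin2 and Gm44040, at ratios of 6.93 to 2.73. Lowest were Ccr7, Cdk5rap1, H2-DMb1, H2-Aa, Cxcr4, Sfn, Clec2i, Pxylp1, Lilr4b and Lncpint, at 0.279 to 0.442. Ccr7, the receptor that leads cells to lymph nodes, was at 93.8, 53.2, 102 and 14.8 CPM, and Cxcr4, a homing receptor for CXCL12, at 29.9, 45.2, 30.3 and 14.4. Both were lowest in aC+C, and their ratios to Ac were 0.284 (0.207 to 0.385) and 0.308 (0.231 to 0.406) without members carrying other types' transcripts. Ccr7 is also high in migratory dendritic cells, and its level in IgG was 22.9 without such members and 93.8 with them. Xcl1, a chemokine for cross-presenting dendritic cells, was at 33.4, 78.3, 66.4 and 18.8 CPM, a ratio of 0.240 (0.198 to 0.289), with 24.1% of its UMIs of Ac in 1 cell.

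Against C it had 158 of 8449 genes past 1.5 times on the higher side, or 1.87%, and 1391 on the lower side, or 16.5%, beside a median ratio of all genes of 0.925. Divided by that median, 274 were higher and 1117 lower. Higher were Gm44040, Xlr4c, Gzmk, Chchd10, Gzmb, Serpinb9b, Gzmf, Sult2b1, Zbtb32 and Sv2c, at ratios of 5.22 to 2.58. Lower were H2-Eb1, H2-Aa, H2-Ab1, Itgax, H2-DMb1, Hfe, P2ry6, Marcks, Cxcl16 and Csf2rb, at 0.0444 to 0.116, with macrophage markers at 4455 CPM in C and 940.5 in aC+C. Without members carrying other types' transcripts 87 genes were higher and 239 lower. Of the 1391 genes lower as first counted, 993 had too few UMIs left to be compared, 302 were compared and no longer past the fold, and 96 still were. Of 17 cytotoxic genes 13 were past the fold above C and 0 lower, and 6 and 1 without those members. Gzmk had ratios of 3.70 (3.01 to 4.60) and 3.07 (2.26 to 4.26), Xlr4c, an X-linked lymphocyte gene, 4.60 (2.93 to 7.51) and 7.69 (3.17 to 24.3).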

How the data were processed

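Cell capture used 10x Genomics 3′ reagents, version v2 per the labels' protocols, aiming at about 5000 cells a library, while each file lists 6794880 barcodes, more than the list of that version holds. The submitters' processing notes name Cell Ranger 2.1.1 and mm10, and the matrix headers name software 3.0.2; other upstream settings were not given in the sources read. Per the file headers and values, the deposited files are unfiltered UMI counts with no scaling by the authors, and name lists.

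Each class was summed within a library and scaled to CPM. Ratios have exact conditional binomial intervals and shares Clopper-Pearson intervals, at 95%. A sum of 0 was set to 3 counts only for the geometric mean ratios and their list medians in cycling against non-cycling cells. Ratios between libraries had no such floor. Genes past a fold of 1.5 with at least 100 UMIs over both sums were called; no test was possible with 1 library per group. The ratios were run on simulated sums of independent counts. Such sums leave out that 1 cell can hold a large part of a gene's UMIs, so they cannot show how the intervals cover spread between cells or libraries. Scrublet in scanpy 1.11.5 scored doublets (0.8% per 1000 cells marked), and none was left out of the main values. Of 650 listed symbols 642 were in the files. Libraries held 61519049 (IgG), 65973242 (Ac), 75665201 (C) and 75067320 (aC+C) UMIs, of which cycling CD8 T cells had 8573900, 6459970, 6462149 and 7821588.

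The members and lists were chosen with earlier results of these data known. Named by rule were the 10 genes of highest and lowest ratio past the fold (between libraries, only where the interval excluded 1 and no cell held over 20% of the UMIs), and from each list the genes of most UMIs and those past the fold. Other genes were named after their values were seen, and some genes that the rule names are not reported here. Alternatives varied the Mki67 and Top2a minimum, cell limits, doublets, cells with macrophage or other types' transcripts, thinning, cell weights, background RNA, scaling and the UMI minimum per gene.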

Additional observations from a re-analysis of the deposited data

Results flagged for a closer look

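In 3 of the genes named or listed, cycling CD8 T cells were at least 1.5 times higher than non-cycling cells in 1 library and at least 1.5 times lower in another, with both counting intervals apart from 1; the difference between the libraries was not tested. Gbp2, a GTPase that interferon gamma induces, had a ratio of 1.58 (1.40 to 1.78) in C and 0.556 (0.459 to 0.671) in Ac. Oasl1, a gene of the type I interferon response, had 1.80 (1.38 to 2.37) in C and 0.446 (0.272 to 0.708) in Ac. Ckb, which encodes the brain form of creatine kinase, had 1.94 (1.67 to 2.26) in IgG and 0.494 (0.328 to 0.736) in aC+C. In cycling cells without other types' transcripts their levels, in the order of the libraries, were 18.6, 16.9, 16.2 and 15.8 CPM for Gbp2, 5.23, 2.36, 8.80 and 5.06 for Oasl1 and 12.99, 4.13, 4.17 and 5.26 for Ckb, against 56.9, 24.3, 124 and 71.3, 11.8, 3.87, 27.6 and 9.97 and 61.1, 18.9, 31.9 and 5.11 with those cells.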

How the results depend on the processing

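No paired analysis was possible because each group has 1 library. Across the planned settings and 3 added after the data were seen (removal of cells with at least 5 UMIs over the markers of another cell type, or with at least 2 or 5 macrophage UMIs among 5000), 130 of 184 values of cycling shares and gene counts held within their interval or within 1.5 times. In the order used above, the cycling share was 39.6%, 30.2%, 39.0% and 40.7% with at least 2 UMIs of Mki67 and Top2a, 25.02%, 19.4%, 25.04% and 27.7% with at least 6, and 42.5%, 36.3%, 41.3% and 42.5% after thinning with at least 1. Without cells holding macrophage UMIs it was 24.0% in C and 28.5% in aC+C, and without cells holding UMIs of any other type 24.1% and 28.5%.

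Counts are given as higher and lower, for Ac, C and aC+C against IgG and aC+C against Ac and against C. With at least 400 UMIs per gene they were 34 and 130, 235 and 58, 65 and 205, 43 and 41, and 80 and 382, and between cycling and non-cycling cells 225 and 37. With at least 20 they were 379 and 1271, 1924 and 449, 523 and 1443, 685 and 667, and 379 and 2741, and 140 were lower in cycling cells. Fewer or more genes were compared there. Without cells holding macrophage UMIs 210 were lower in Ac, 110 higher in C, 93 higher in aC+C than in IgG, 60 higher than in Ac, and 86 higher and 258 lower than in C. Without cells holding other types' UMIs 61 were lower in Ac, 109 higher and 95 lower in C, 90 and 251 in aC+C against IgG, 62 higher against Ac, and 87 and 239 against C. Divided by the median ratio, 274 were higher in aC+C than in C.

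Some medians and ratios crossed 1; beyond the removals named here the cause was not tested. The naive and memory median of Ac over IgG was 1.01 with at least 6 UMIs and 1.18 without cells of other types' UMIs. Without cells holding macrophage UMIs the medians were 1.02 for cytotoxic and 0.890 for immediate early genes in C over IgG, and, in aC+C over C, 0.960 for histones, 0.959 for activation and 1.08 for type I interferon genes. Without cells of other types' UMIs the last 3 were 0.963, 0.965 and 1.08, and chromatin genes 0.994. Single genes in C over IgG without macrophage UMIs were Timp2 0.834, Angptl2 0.210, Myof 0.327, Trim47 0.368, Zfhx3 0.140, Cd63 0.523, Igf1r 0.640 and Rgl1 0.245; Angptl2 was 0.321 without other types' UMIs. Akr1b8 in aC+C over IgG was 0.883, and H2-DMb1 in aC+C over Ac 2.07 and 3.09. Without other types' UMIs Tbc1d4 in Ac over IgG was 1.03, and in aC+C over C Gzmf was 0.998 and Cxcl16 1.02. Depth limits low genes: a gene at 100 UMIs over 2 libraries has a counting interval near the size of the fold used.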

Other observations

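Some genes differed between libraries alike in cycling and non-cycling CD8 T cells. Klra3, an inhibitory receptor of the Ly49 family found on NK cells and some CD8 T cells, was at 23.1, 2.32, 4.64 and 23.9 CPM in cycling and 31.0, 2.00, 4.23 and 24.2 in non-cycling cells. Both classes were high in IgG and aC+C and low in Ac and C. Ratios of aC+C to IgG in cycling and non-cycling cells were 4.74 and 3.88 for the histone Hist1h2ap, 2.85 and 2.82 for Gm10073, 2.64 and 2.63 for Gstp1 and 2.55 and 3.02 for Pgk1, an enzyme of glycolysis. Several of these have near-identical copies in the genome, and whether counting between copies bears on them was not tested.

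Brca1, which acts in DNA repair by homologous recombination, was at 28.2, 33.6, 24.4 and 32.5 CPM in cycling and 2.09, 2.67, 2.76 and 2.52 in non-cycling cells, higher in cycling cells of every library. Of 15 measured genes of the DNA damage and p53 list 7 were called higher in all 4 libraries and 1 lower, at a median ratio of 1.19. Over all genes 6.46% were called higher and 1.12% lower. Without cells that carried other types' transcripts 2 of 8 were higher and 0 lower, at a median of 1.07. The rule split the cells on Mki67 and Top2a, so these counts describe the split and nothing is read from them. T cell receptor segments of these cells were not analysed here.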
